A study of Homo sapiens with 24 samples.

Results

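The peaks of a ChIP with a MYC-tag antibody were set against those of an IgG isotype control, both from HCC827-OR cells of the Wild-Type genotype. Every peak of both lists was taken, 2767 in the MYC-tag list and 2529 in the IgG list, which gave 5296 of the 13347 peaks in the 8 lists of the series. HCC827 is an established human lung adenocarcinoma line that carries a mutated, amplified EGFR gene. HCC827-OR is its osimertinib-resistant derivative, and per the labels it was kept in 1 µM osimertinib, a covalent inhibitor of mutant EGFR. Both groups therefore shared the line, the resistance and the drug, and differed in the antibody. Each group had 2 samples labelled as biological replicates, and neither expressed the METTL7A-MYC-tag-FLAG protein found in other samples of the series, METTL7A being a membrane-associated methyltransferase-like protein. Whether HCC827-OR is 1 clone or a pool is not given in the sources used here. A peak list cannot check a cell type by its expressed markers, and the concentration of peaks around EGFR, described below, is the one feature of the line that it can show.

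A peak is a stretch of DNA recovered more often than its surroundings. An isotype control has no intended target, so its peaks mark DNA that is recovered without specific recognition, such as open promoters and regions present in many copies. The MYC-tag antibody recognises a short peptide taken from the human MYC protein, so in cells with no tagged protein MYC itself remains a possible target. MYC is a transcription factor that pairs with MAX and binds the E-box, and it is known for driving genes of ribosome production, nucleotide synthesis and the cell cycle, among them CDK4.

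Promoters of 5 gene starts are printed here, chosen after their peaks were seen to show each way in which the lists met or parted. CDK4, at chr12:57752261-57752560 on the minus strand, had a reproducible MYC-tag peak and an IgG peak that was not reproducible. TBK1, at chr12:64451870-64452169 on the plus strand, and SEC61G, at chr7:54759162-54759461 on the minus strand, had reproducible peaks in both lists. FANK1, at chr10:125896314-125896613 on the plus strand, had a peak in the MYC-tag list alone, and EGFR, at chr7:55018767-55019066 on the plus strand, had its reproducible peak in the IgG list. Each sequence is from RefSeq on GRCh38.p14 and runs 5′ to 3′ for 300 bases, from 250 before the gene start to 50 after it. These coordinates are of another build than the peaks, which are given on GRCh37. Capitals mark the E-box CACGTG, which reads the same on both strands.
CDK4: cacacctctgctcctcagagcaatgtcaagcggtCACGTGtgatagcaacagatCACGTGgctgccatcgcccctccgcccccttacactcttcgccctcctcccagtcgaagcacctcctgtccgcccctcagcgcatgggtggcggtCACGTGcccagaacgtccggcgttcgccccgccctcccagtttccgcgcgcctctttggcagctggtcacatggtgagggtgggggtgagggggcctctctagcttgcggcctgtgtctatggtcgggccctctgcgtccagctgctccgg
TBK1: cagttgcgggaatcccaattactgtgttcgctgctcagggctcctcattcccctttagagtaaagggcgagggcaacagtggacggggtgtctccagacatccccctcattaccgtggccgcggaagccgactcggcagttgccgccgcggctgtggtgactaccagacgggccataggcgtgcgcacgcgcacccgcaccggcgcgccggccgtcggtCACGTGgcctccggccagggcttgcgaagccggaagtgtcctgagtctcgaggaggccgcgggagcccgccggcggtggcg
SEC61G: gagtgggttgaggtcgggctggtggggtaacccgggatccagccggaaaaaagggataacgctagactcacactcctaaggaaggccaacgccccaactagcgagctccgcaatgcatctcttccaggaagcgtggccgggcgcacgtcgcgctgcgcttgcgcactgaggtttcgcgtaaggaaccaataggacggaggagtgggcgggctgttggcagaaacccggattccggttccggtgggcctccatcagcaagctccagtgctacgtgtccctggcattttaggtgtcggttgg
FANK1: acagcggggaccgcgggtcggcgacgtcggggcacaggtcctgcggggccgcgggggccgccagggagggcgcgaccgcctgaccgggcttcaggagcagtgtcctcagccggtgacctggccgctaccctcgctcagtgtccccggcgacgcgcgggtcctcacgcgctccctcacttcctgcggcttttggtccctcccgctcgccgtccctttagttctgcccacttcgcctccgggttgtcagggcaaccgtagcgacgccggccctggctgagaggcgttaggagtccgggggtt
EGFR: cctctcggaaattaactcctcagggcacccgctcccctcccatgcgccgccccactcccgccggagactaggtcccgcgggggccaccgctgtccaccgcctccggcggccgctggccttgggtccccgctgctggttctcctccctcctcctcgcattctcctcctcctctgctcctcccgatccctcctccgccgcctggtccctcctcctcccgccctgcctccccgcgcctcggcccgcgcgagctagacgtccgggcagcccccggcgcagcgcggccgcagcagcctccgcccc

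The E-box stood 3 times in the CDK4 promoter and once in that of TBK1, and these letters were not in the other 3 sequences printed. Of 27305 RefSeq promoters of this length, 7.43% held it. Among 18 genes whose start had a reproducible peak in either list, 12 had a promoter in the table, 10 of these lay at the gene's own start in that build, and 2 of the 10 held the E-box. All 5 printed promoters lay above the median of 58.3% G and C over all promoters, from 61.0% in SEC61G to 75.3% in EGFR. SEC61G and CDK4 (66.0%) were below the upper quartile of 67.7%. The 5 promoters held 23 to 37 CG dinucleotides, against a median of 14. A match of letters is a description and not a binding site.

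Heights below are the authors' −log10 p of the peak caller, one value from each replicate, and "the height" of a peak is the lower of them. The lists also give an irreproducible discovery rate (IDR), which asks whether a peak ranks alike in both replicates, and a peak is called reproducible here at a global IDR of 0.05 or less. By that rule 63 of the 2767 matched MYC-tag peaks were reproducible (2.28%, exact 95% interval 1.75 to 2.90%), against 20 of the 2529 matched IgG peaks (0.791%, 0.484 to 1.22%). The rule sat at a different height in each list. The lowest reproducible peak had a height of 7.78 in the MYC-tag list and 12.9 in the IgG list. At one common height of 9 or more, the order turned round, with 48 MYC-tag peaks against 97 IgG peaks, and at 5 or more there were 547 MYC-tag peaks against 989. The greater number of reproducible MYC-tag peaks thus did not mean more high peaks. The median height was 4.15 in the MYC-tag list and 4.52 in the IgG list, and median widths were 595 and 610 bases. Each list merges its 2 replicates, so these numbers have no replicate error, and the depth of the libraries is unknown from the files. Intervals cover counting error only.

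**Figure D1:**
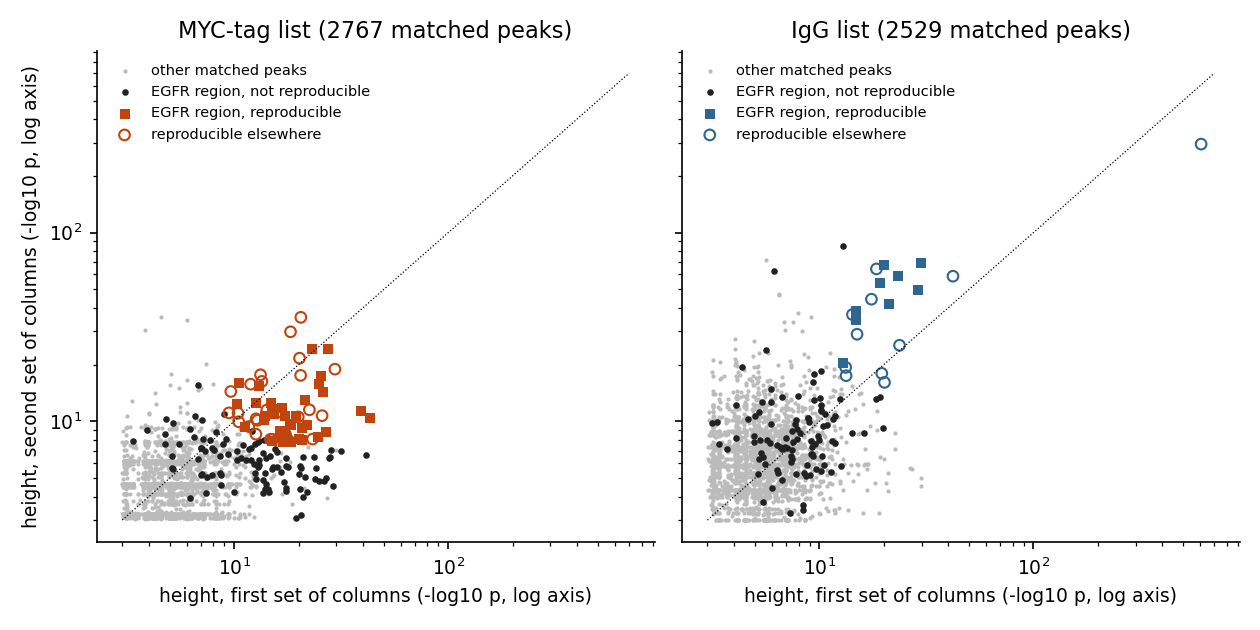
Height of every matched peak in the first (x) and second (y) set of replicate columns, as −log10 p on log axes, for the MYC-tag list (left) and the IgG list (right). Filled squares are reproducible peaks of the EGFR region, open circles reproducible peaks elsewhere, black dots other peaks of the EGFR region and grey dots the remaining peaks; the dotted line marks equal heights, and most reproducible MYC-tag peaks lie below it while most reproducible IgG peaks lie above it.

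The replicates of a list agreed weakly in height, and they leaned in opposite directions in the 2 lists. Across peaks, Spearman's rho between the sets of columns was 0.163 over 2767 matched MYC-tag peaks and 0.122 over 2529 matched IgG peaks. Among reproducible peaks it was 0.0387 over 63 MYC-tag peaks and 0.589 over 20 IgG peaks. These are correlations over peaks of one pair of libraries, and the peaks are not independent replicates. The first set of columns was the higher in 50 of the 63 reproducible MYC-tag peaks, against 3 of the 20 reproducible IgG peaks. At a height of 9 or more in the first columns alone there were 256 MYC-tag peaks and 249 IgG peaks. In the second columns alone there were 118 MYC-tag peaks and 486 IgG peaks. The files do not say which replicate fills which columns.

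Reproducible MYC-tag peaks mostly lay where the IgG list also had a peak. At a minimum overlap of 1 base, 42 of the 63 reproducible MYC-tag peaks met a matched IgG peak (66.7%, 53.7 to 78.0%). Over all matched peaks the share was 12.8% (355 of 2767) of the MYC-tag list and 14.6% (370 of 2529) of the IgG list. Of the 20 reproducible IgG peaks, 15 met a matched MYC-tag peak (75%, 50.9 to 91.3%). Where both peaks had to be reproducible, 6 positions were common, which is 9.52% of the 63 MYC-tag peaks and 30% of the 20 IgG peaks. The overlap grew with height in both lists. Among MYC-tag peaks it was 6.56% at a height of 3 to under 4 and 64.6% at 9 or more. Among IgG peaks it was 7.01% and 47.4% in the same classes.

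**Figure D2:**
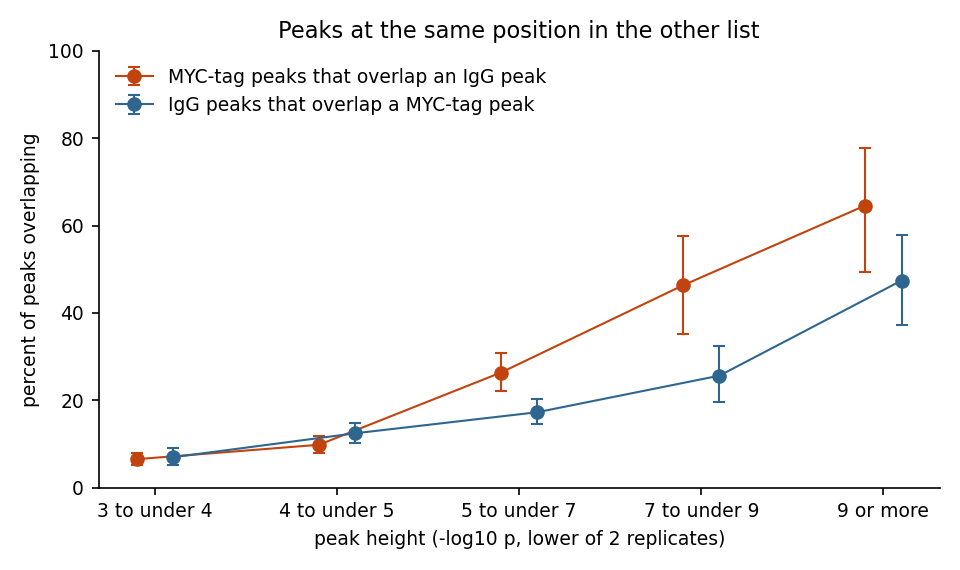
Percent of peaks that overlap a peak of the other list by at least 1 base (y), by peak height (x, −log10 p, lower of 2 replicates), for MYC-tag peaks (orange) and IgG peaks (blue). Bars are exact 95% binomial intervals; in both lists the share grows with height, to 64.6% of MYC-tag peaks and 47.4% of IgG peaks at a height of 9 or more.

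The 6 positions that were reproducible with both antibodies were mostly gene starts. TBK1, a kinase of innate immune signalling, had heights of 18.3 and 29.8 in the MYC-tag replicates at its start (chr12:64845526-64846351), against 17.5 and 44.4 in the IgG replicates. The start of LANCL2, which encodes a LanC-like protein and lies downstream of EGFR, had 24.9 and 15.8 in the MYC-tag replicates (chr7:55433158-55434417), against 19.3 and 53.9 in the IgG replicates. The start of SEC61G, a subunit of the channel that passes proteins into the endoplasmic reticulum, had 21.3 and 13.0 in the MYC-tag replicates (chr7:54826413-54827128), against 14.9 and 38.2 in the IgG replicates. All 3 starts were high in all 4 libraries, and their ranges overlapped between the antibodies. SYDE2, a gene of a GTPase activator, had 15.8 and 11.1 in the MYC-tag replicates at its start (chr1:85665972-85666648), against 13.3 and 17.5 in the IgG replicates. The other 2 positions lay between genes of the EGFR region. Between LANCL2 and VOPP1 (chr7:55516176-55518123) the MYC-tag replicates had 27.6 and 24.0, against 20.0 and 67.1 in the IgG replicates. This was the highest MYC-tag peak of all by the lower replicate. Between VSTM2A and SEC61G (chr7:54765271-54767204) the MYC-tag replicates had 39.3 and 11.4, against 14.8 and 34.5 in the IgG replicates. At none of the 6 did the antibodies separate beyond the spread of their own replicates.

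Pairs of overlapping peaks were compared in height over the whole lists as well. The 371 overlapping pairs included 33 in which both MYC-tag heights lay above both IgG heights (8.89%), against 59 in which both IgG heights lay above both MYC-tag heights (15.9%). In the other 279 the ranges overlapped. With 2 values against 2, an exact permutation test of one position cannot go below 0.333, so no single position can pass a test. Among the 42 reproducible MYC-tag peaks with an IgG partner, 3 stood wholly above it, 1 wholly below and 38 overlapped in range. Those 3 lay between EGFR and LANCL2, between SEC61G and EGFR, and inside EGFR. The highest of them (chr7:55345279-55347500) had 13.1 and 15.4 in the MYC-tag replicates, against 11.5 and 10.3 in the IgG replicates. Heights are set within each library, so a gap between lists is not a measured difference in binding.

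The EGFR region, taken as chromosome 7 from 54 to 56 Mb, held most of the reproducible MYC-tag peaks. It had 37 of the 63, against 9 of the 20 in the IgG list, whose IDR threshold sat at a greater height. Of matched peaks it had 139 of 2767 MYC-tag peaks (5.02%, 4.24 to 5.90%), against 106 of 2529 IgG peaks (4.19%, 3.44 to 5.05%). The share did not pass a two-sided Fisher exact test adjusted over 5 regions (odds ratio 1.21, Benjamini-Hochberg adjusted p = 0.282). None of the 5 regions was called (0%), and at an unadjusted p under 0.05 there was 1. Restricted to heights of 5 or more, however, the region had 111 of 547 MYC-tag peaks (20.3%), against 90 of 989 IgG peaks, and the odds ratio of 2.54 passed Fisher's exact test (adjusted p = 6.19e-09). That restriction acts on lists of unequal height, as given above. These Fisher tests compare 2 lists of peaks, and peaks that sit side by side are counted as if unrelated, which can make the p-values too low. Counted in 100 kb bins with a matched peak of any height, the region had 16 of 2197 MYC-tag bins, against 14 of 2008 IgG bins. That odds ratio of 1.04 did not pass. The 2 lists overlapped more in this region than outside it, with 72 of 139 MYC-tag peaks (51.8%) and 81 of 106 IgG peaks (76.4%) meeting the other list. Outside it the shares were 10.8% of 2628 MYC-tag peaks and 11.9% of 2423 IgG peaks. Among reproducible MYC-tag peaks the shares were alike, 67.6% of 37 in the region and 65.4% of 26 outside it.

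Within the region the reproducible MYC-tag peaks stood mainly inside and between genes. EGFR, the receptor tyrosine kinase that osimertinib inhibits, had 14 reproducible MYC-tag peaks inside the gene, against 1 reproducible IgG peak inside it. The lowest reproducible peak of the whole list had a height of 7.78 with MYC-tag and 12.9 with IgG. Only the highest of the 14 stood above 12.9, and the next had a height of 11.7. Matched peaks at its start or inside numbered 46 with the MYC-tag antibody and 31 with IgG. The highest MYC-tag peak inside the gene (chr7:55228397-55229354) had heights of 25.4 and 17.4, against 19.2 and 13.4 in the IgG replicates, and the ranges overlapped. At the EGFR start the order was the other way. The MYC-tag peak there (chr7:55085275-55088173) had 14.0 and 6.398 and was not reproducible, against 23.2 and 58.6 in the IgG replicates (chr7:55085809-55088472), whose values were both higher. The 1 reproducible IgG peak inside the gene (chr7:55145414-55147048) had 23.6 and 6.46 in the MYC-tag replicates, against 21.1 and 41.95 in the IgG replicates. The highest IgG peak of the region, between VSTM2A and SEC61G (chr7:54731635-54733212), had 17.4 and 5.83 in the MYC-tag replicates, against 29.7 and 69.1 in the IgG replicates, and both IgG values were the higher. One position between SEC61G and EGFR (chr7:54945651-54946250) had 25.9 and 14.3 in the MYC-tag replicates and no IgG peak. It also stood in 2 of the 3 other MYC-tag lists of the series.

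At the flanking genes the starts went either way. VSTM2A, a gene of a secreted immunoglobulin-domain protein, had the second highest MYC-tag peak at its start (chr7:54609560-54610354), with 23.1 and 24.3, against 12.9 and 85.01 in the IgG replicates. The IgG peak there missed the IDR threshold at 0.0680, although one of its libraries was far above both MYC-tag libraries. VOPP1, a gene of a vesicular protein often amplified with EGFR, had no MYC-tag peak at its start, against IgG heights of 28.8 and 49.4 (chr7:55639337-55640374). Inside VOPP1 the MYC-tag list had 2 reproducible peaks, the higher with 16.8 and 11.8 (chr7:55555203-55558375), against 9.36 and 16.2 at its IgG partner. Of the 6 genes listed for the region, 4 had a matched MYC-tag peak at the start and 5 a matched IgG peak, and 4 had both.

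The CDK4 region, chromosome 12 from 57 to 59 Mb, had 30 matched MYC-tag peaks and 28 matched IgG peaks (odds ratio 0.978, Fisher adjusted p = 1 over 5 regions). It held 9 reproducible MYC-tag peaks, against 2 reproducible IgG peaks, in a list whose IDR threshold sat at a greater height. The higher of those IgG peaks, inside AGAP2 (chr12:58130472-58132579), had 18.6 and 3.65 in the MYC-tag replicates, against 18.5 and 64.2 in the IgG replicates. The other, between B4GALNT1 and OS9 (chr12:58049396-58050025), had 27.0 and 3.93 in the MYC-tag replicates, against 15.004 and 29.0 in the IgG replicates. At both, the lower MYC-tag height lay below both IgG heights, and the higher MYC-tag height lay between them. CDK4, the cyclin D partner that starts the cell cycle and a known MYC target, had 13.3 and 17.7 in the MYC-tag replicates at its start (chr12:58145850-58146557), against 8.45 and 22.9 in the IgG replicates. The IgG values enclosed the MYC-tag values, so the antibodies could not be separated at this promoter with its 3 E-boxes. The CDK4 peak was found again in all 3 other MYC-tag lists. It was in no other IgG list, but 2 of those 3 lists hold only 96 and 70 peaks. AGAP2-AS1, a noncoding RNA antisense to the GTPase-activating protein gene AGAP2, had 20.5 and 35.6 in the MYC-tag replicates (chr12:58119244-58122062), against 5.64 and 71.4 in the IgG replicates. Peaks carry no strand, so the start of AGAP2-AS1 cannot be told from the overlapping AGAP2.

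At further starts of the region the MYC-tag heights again lay between a low and a high IgG height. ARHGEF25, a guanine nucleotide exchange factor gene, had 20.4 and 17.5 in the MYC-tag replicates (chr12:58003824-58005813), against 6.51 and 46.7 in the IgG replicates. DTX3, a ubiquitin ligase gene, had 25.8 and 10.7 in the MYC-tag replicates (chr12:57998206-57999698), against 6.84 and 33.5 in the IgG replicates. B4GALNT1, which makes GM2 and GD2 gangliosides, had 17.4 and 8.51 in the MYC-tag replicates at its start, against 6.50 and 47.2 in the IgG replicates. A second, higher MYC-tag peak inside B4GALNT1 (chr12:58021249-58022920) had 29.6 and 18.9, against 7.96 and 37.3 at the highest of its IgG partners. At each of these places the IgG libraries enclosed the MYC-tag values, with one IgG library low and the other high. Of 13 genes listed for the region, 4 had a matched MYC-tag peak at the start, 3 a matched IgG peak, and 3 both.

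Of 54 genes with an entered position, 11 of them added after peaks were seen, 22 had a peak of either list within 1000 bases of the start. Both lists had one at 16 of them, the MYC-tag list alone at 4 and the IgG list alone at 2. At the 16 the MYC-tag height was the higher at 9 and the IgG height at 7. Both IgG heights lay above both MYC-tag heights at 3 of the 16, and the reverse was seen at 0. Those 3 were EGFR, TMEM170B and JPH1, to be read beside the 15.9% of all pairs in which IgG stood above.

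**Figure D3:**
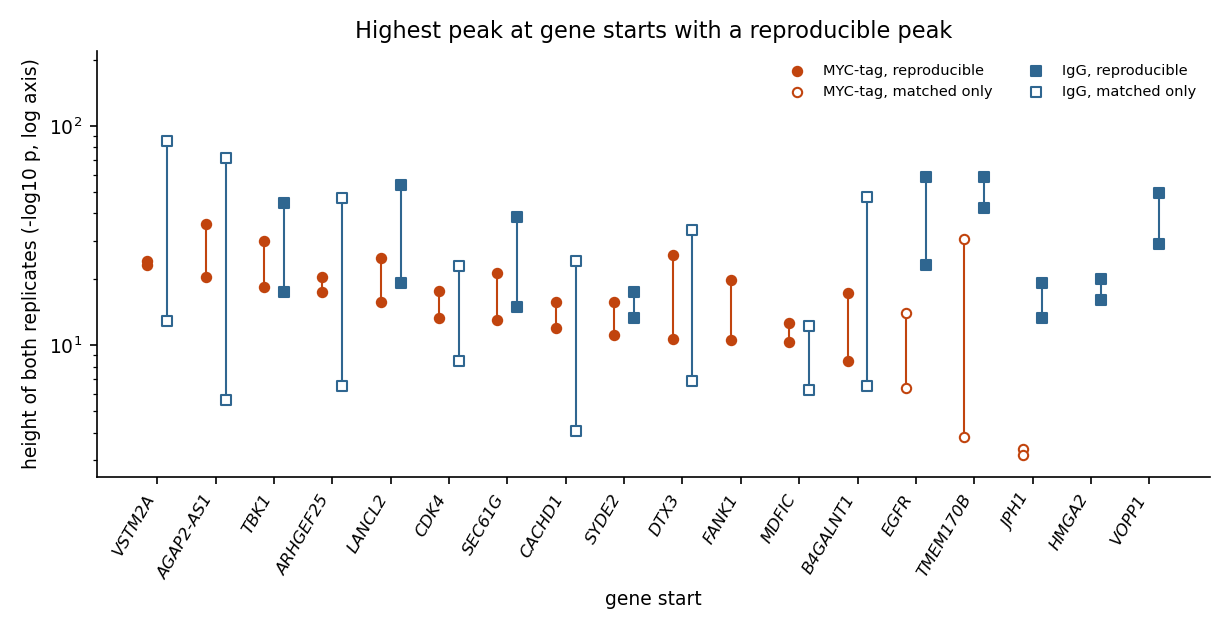
Heights of both replicates (y, −log10 p on a log axis, joined by a line) of the highest peak at each gene start that had a reproducible peak in either list, MYC-tag as circles on the left and IgG as squares on the right of each gene. Filled symbols are reproducible peaks and open symbols matched peaks only; at CDK4, ARHGEF25, AGAP2-AS1 and DTX3 the open IgG pair encloses the filled MYC-tag pair, and at EGFR and TMEM170B both IgG values are above both MYC-tag values.

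Of the 63 reproducible MYC-tag peaks, 21 had no counterpart with IgG. The highest was inside HFM1, a helicase gene of meiotic recombination (chr1:91852813-91853107), with heights of 20.2 and 21.6. It was also in 2 of the 3 other MYC-tag lists. FANK1, a testis-expressed gene of a fibronectin and ankyrin repeat protein, had 19.9 and 10.6 at its start (chr10:127584433-127585411) and no peak in any of the other 7 lists. Of the 21 peaks, 16 were in at least 1 other MYC-tag list and 4 in at least 1 other IgG list. Of the 42 with an IgG partner, 37 and 26 were. Recurrence in other MYC-tag lists was thus not particular to peaks without a partner. The METTL7A IgG lists hold only 96 and 70 peaks, so a match with IgG had fewer peaks to meet. The positions of the 21 were mainly away from gene starts. Of 13 reproducible MYC-tag peaks at a listed gene start, 12 had an IgG partner, against 30 of the 50 elsewhere. Since listed genes were entered with the peaks known, this split is a description.

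CACHD1, a gene of a calcium channel accessory protein, had 11.9 and 15.7 in the MYC-tag replicates at its start (chr1:64935350-64936544), against 4.05 and 24.2 in the IgG replicates. MDFIC, a gene of a transcriptional regulator with a MyoD family inhibitor domain, had 12.7 and 10.3 in the MYC-tag replicates (chr7:114561864-114562711), against 6.23 and 12.2 in the IgG replicates. MDFIC was the highest MYC-tag peak of the MET arm, chromosome 7 from 85 to 120 Mb. That arm had 68 matched MYC-tag peaks and 62 matched IgG peaks (odds ratio 1.00, Fisher adjusted p = 1). MET itself, a receptor kinase known to bypass EGFR inhibition when amplified, had a single MYC-tag peak of height 5.69 inside the gene and 2 IgG peaks, the higher at 4.43. The highest IgG peak of the arm (chr7:101961716-101962270) had 15.6 and 14.2 and no MYC-tag partner.

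On chromosome 6 between 11 and 12 Mb, the MYC-tag list had 5 reproducible peaks and the IgG list 1. The IgG peak, the second highest of its list, lay at the start of TMEM170B, a transmembrane protein gene (chr6:11537472-11538778), where the MYC-tag replicates had 3.83 and 30.4, against 42.1 and 58.8 in the IgG replicates. The MYC-tag list had 4 reproducible peaks inside ADTRP, a gene of an androgen-dependent regulator of coagulation, against 0 in the IgG list, whose threshold sat higher. Matched peaks at the start or inside ADTRP numbered 15 with the MYC-tag antibody and 6 with IgG, and the tallest had a height of 11.5 in the MYC-tag list and 12.8 in the IgG list. At one of them (chr6:11770616-11771884) the MYC-tag replicates had 10.4 and 11.04, against 12.8 and 13.9 in the IgG replicates, both higher. The highest MYC-tag peak of the locus, between TMEM170B and ADTRP (chr6:11594597-11594923), had 13.5 and 16.3, against 19.1 and 6.51 in the IgG replicates. The MYC-tag list had 30 matched peaks here and the IgG list 13 (odds ratio 2.08, Fisher adjusted p = 0.108). At heights of 5 or more the counts were 23 of 547 and 13 of 989, and the odds ratio of 3.24 passed Fisher's exact test (adjusted p = 0.00152). Counted in 100 kb bins the excess was 5 bins against 4 (odds ratio 1.12).

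The IgG list had a tallest peak of its own on the short arm of chromosome 21 (chr21:9825490-9827150), with heights of 607 and 294. No MYC-tag peak and no peak of the 6 other lists met it. Another (chrX:25020479-25021018) had 23.7 and 25.3 and was likewise met by no peak of the other 7 lists. A reproducible IgG peak at the start of HMGA2, a chromatin architecture gene, had 20.1 and 16.1 and no MYC-tag partner. The start of JPH1, a junctophilin gene, had 3.36 and 3.15 in the MYC-tag replicates, against 13.3 and 19.3 in the IgG replicates. In all, 5 of the 20 reproducible IgG peaks were in none of the other 7 lists, against 4 of the 63 reproducible MYC-tag peaks. The same share over all matched peaks was not computed here. The lists to be met were also unlike for the antibodies. Other MYC-tag lists held 1005 to 3165 peaks, against 1444, 96 and 70 in the other IgG lists.

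Genes known as MYC targets were looked up in both lists. Among 15 such genes, a list without CDK4 and including the nucleolar genes NPM1 and NCL, the polyamine enzyme gene ODC1 and the glycolytic gene LDHA, 0 had a matched peak at the start in the MYC-tag list and 0 in the IgG list. The share of all gene starts that hold a peak was not computed here, so these counts have no background to be read against. The single peak inside any of them was in MYC, in the MYC-tag list (chr8:128750040-128751238), with heights of 7.71 and 5.10 and a global IDR of 0.445. It was found in all 3 other MYC-tag lists and had no IgG partner. The megabase of chromosome 8 that holds MYC had 6 matched MYC-tag peaks and 1 matched IgG peak, none reproducible (odds ratio 3.97, Fisher adjusted p = 0.282). That IgG peak (chr8:128565168-128566098) had heights of 5.56 and 6.42 and no MYC-tag partner.

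One chromosome differed between the lists. Chromosome 19 held 40 of 2767 matched MYC-tag peaks (1.45%, 1.03 to 1.963%), against 105 of 2529 matched IgG peaks (4.15%, 3.41 to 5.004%). The odds ratio of 0.341 was the only one to pass among 23 chromosomes (4.35%), with a Fisher adjusted p of 2.65e-08, and it also passed in 100 kb bins (adjusted p = 1.01e-05). None of these peaks was reproducible in either list, and the highest reached 6.03 with the MYC-tag antibody and 9.75 with IgG. Elsewhere in the series chromosome 19 held 1.36% of the peaks from resistant METTL7A cells with the MYC-tag antibody, 1.39% of the parental wild-type MYC-tag peaks, 0.705% of the parental METTL7A MYC-tag peaks and 2.15% of the parental wild-type IgG peaks. Chromosome 7, which carries EGFR and MET, had 312 MYC-tag peaks (11.3%) and 278 IgG peaks (10.99%).

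**Figure D4:**
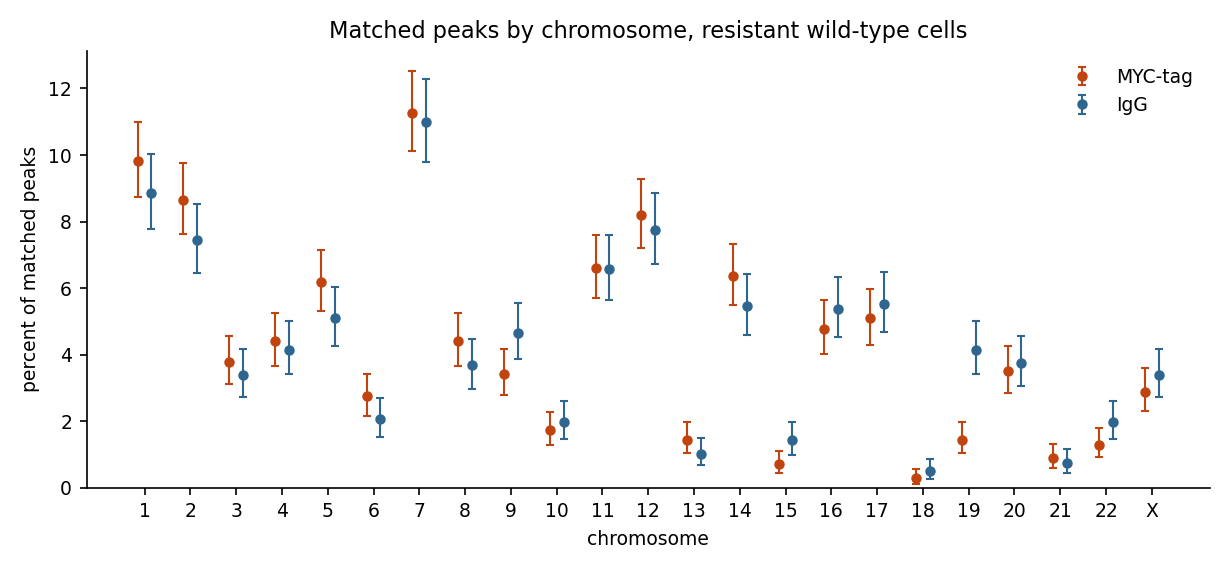
Percent of matched peaks on each chromosome (y), for the MYC-tag list (orange, left of each pair) and the IgG list (blue, right), with exact 95% binomial intervals. Chromosome 19 stands apart at 1.45% of MYC-tag peaks and 4.15% of IgG peaks; on chromosome 7 the intervals overlap.

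The reproducible peaks of both lists came back unequally across the series, and this was not tested. Of the 63 reproducible MYC-tag peaks, 41 were matched in resistant METTL7A MYC-tag cells, 42 in parental METTL7A MYC-tag cells, 40 in parental wild-type MYC-tag cells and 24 in parental wild-type IgG cells. Of the 20 reproducible IgG peaks, the same lists held 3, 4, 13 and 15. Outside the EGFR region, 12 of 26 MYC-tag peaks were in the resistant METTL7A MYC-tag list, against 1 of 11 IgG peaks. The parental METTL7A and parental wild-type MYC-tag lists held 14 and 9 of those 26 MYC-tag peaks, against 1 and 5 of the 11 IgG peaks. In all, 28 reproducible MYC-tag peaks were in each of the 3 other MYC-tag lists. Of those 28, 24 were not at a listed gene start, a share near that of all reproducible MYC-tag peaks (50 of 63). At gene starts, 4 of 13 reproducible MYC-tag peaks were met in resistant METTL7A cells with the MYC-tag antibody, and 9 in parental wild-type cells with it. Over all matched peaks the shares were much lower, at 9.43% of MYC-tag peaks and 7.59% of IgG peaks in the resistant METTL7A MYC-tag list. The METTL7A IgG lists held 96 and 70 peaks, too few to be read beside the others.

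**Figure D5:**
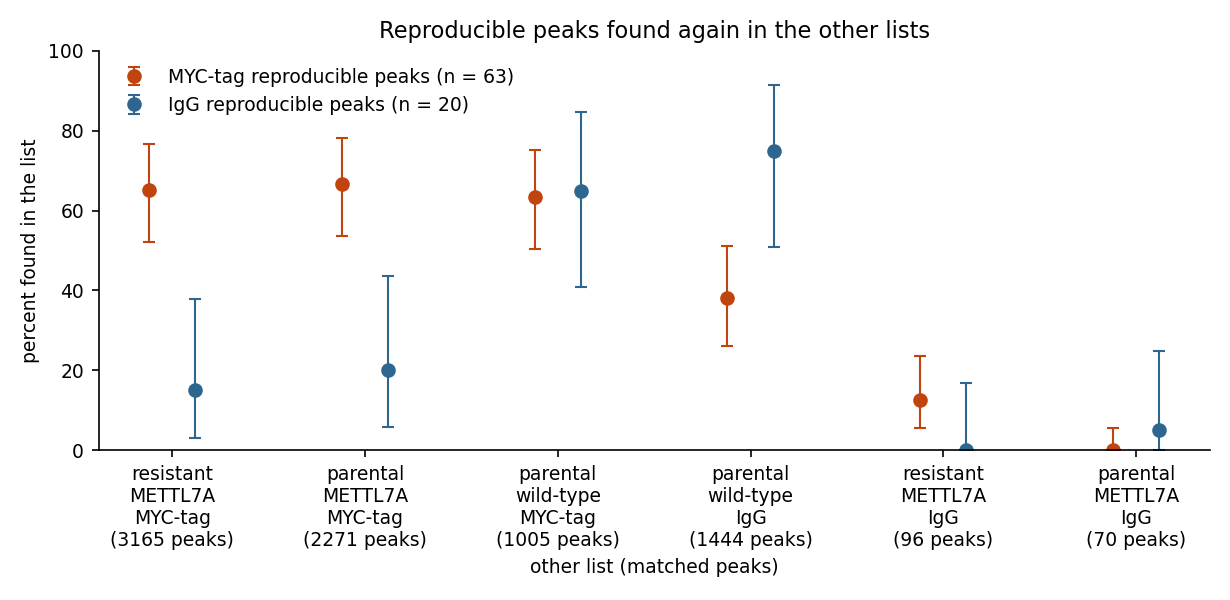
Percent of the 63 reproducible MYC-tag peaks (orange, left) and the 20 reproducible IgG peaks (blue, right) that overlap a matched peak of each other list, with the size of that list below it and exact 95% binomial intervals. In the METTL7A MYC-tag lists the MYC-tag share is 65.1 and 66.7% and the IgG share 15 and 20%; in the parental wild-type MYC-tag list they are 63.5 and 65%.

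Peaks at the edge of the reproducible MYC-tag set were as follows. The 5 reproducible MYC-tag peaks of lowest height ran from 7.78 to 7.97, all in the EGFR or CDK4 regions, and 3 of the 5 had an IgG partner. The 5 just past the threshold had heights of 7.87 to 9.84 and global IDRs up to 0.0536. They lay between VSTM2A and SEC61G, inside LANCL2, inside TMEM170B, inside VOPP1 and on chromosome 8, and 1 of the 5 had an IgG partner.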

How the data were processed

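ChIP-seq peak lists from 24 samples in 12 groups were available for 8 groups, and the 4 samples of 2 lists were compared. Per the submitters' processing notes, which give tools but no role or order, GRCh37 was the build, with MACS2 2.2.7.1 and Bowtie2 2.4.2 among the tools, beside bedtools 2.30, deepTools 3.5.1, SAMtools 1.16, FastQC and Trimmomatic. Heights are −log10 p-values that the authors deposited for each of 2 replicates, and the global IDR is the authors' −log10 value of both replicates together, per the layout of the files. The library used as control in peak calling is not given in the sources used here, and peak lists hold no read totals.

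Peaks, members and gene lists were chosen with earlier results of these data known. Overlaps, exact (Clopper-Pearson) 95% intervals, two-sided Fisher tests with Benjamini-Hochberg adjustment over 5 regions or 23 chromosomes, and Zelen's exact test (chosen after seeing the data) were computed with Python 3.11.15, pandas 2.3.3 and SciPy 1.17.1, after checks on simulated lists. Odds ratios carry Haldane's correction. A peak's place is its midpoint. Named peaks were the 12 highest reproducible MYC-tag and 8 highest reproducible IgG peaks, every position reproducible in both, the highest of each list per region, and peaks next to the IDR threshold. KIF5A, PIP4K2C, DTX3, AGAP2-AS1, MDFIC, SYDE2, JPH1, CACHD1, FANK1, HFM1 and CBLN4 were added after peaks were seen and stand in none of the counts per gene list, but do enter the counts over all listed gene starts. Gene positions on GRCh37 came from general knowledge to the nearest kb. Of 54 genes, 54 lay on the same chromosome in the RefSeq table, and 27 of 27 neighbouring start spacings matched within 2 kb. A peak within 1000 bases of a start counts as at it.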

Additional observations from a re-analysis of the deposited data

Results flagged for a closer look

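Over all matched peaks, the antibody's effect on the EGFR region differed between cell states, and the call was lost at heights of 5 or more. In resistant wild-type cells the region held 139 of 2767 MYC-tag peaks (5.02%), against 106 of 2529 IgG peaks (4.19%), an odds ratio of 1.21. In parental wild-type cells it held 12.7% of 1005 MYC-tag peaks, against 4.16% of 1444 IgG peaks, an odds ratio of 3.35. The resistant samples are labelled with 1 µM osimertinib and the parental samples have no osimertinib label. Resistance and drug therefore cannot be told apart in this comparison. Zelen's exact test of equal odds ratios gave an adjusted p of 6.78e-06 over 6 places tested, and the other 5 places did not pass. The test was chosen after seeing the data and compares lists, not replicate cultures. At heights of 5 or more in both replicates, an alternative added after seeing the data, the odds ratio was 2.54 in resistant and 3.48 in parental cells, and the difference no longer passed Zelen's exact test (adjusted p = 0.845). With that height asked of the first set of columns alone, the adjusted p of Zelen's exact test was 0.000458. It was 0.470 with the second set alone, where the resistant odds ratio was 2.51. The 2 MYC-tag lists differ in length, 2767 peaks in resistant cells and 1005 in parental cells, and the part of list length in this difference was not tested.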

How the results depend on the processing

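Over 24 results and 87 alternatives, 46 alternatives kept direction and call. The ratio of MYC-tag to IgG peaks was 3.15 among reproducible peaks. It was 1.71 at an IDR of 0.01 or less and 1.44 in 100 kb bins. It turned to 0.553 at a height of 5 or more and 0.495 at 9 or more. At a height of 9 or more in one set of columns alone, it was 1.03 for the first set and 0.243 for the second. Matched overlap fell to 9.14% of MYC-tag peaks and 10.004% of IgG peaks with centres within 250 bp, and to 10.5% and 11.7% without chromosome 7. With a height of 9 or more in both lists in place of the IDR rule, 31.25% of MYC-tag peaks overlapped an IgG peak. Reproducible MYC-tag overlap was 66.7% against all matched IgG peaks, and its IgG counterpart was 75%.

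The EGFR region passed at heights of 5 or more (odds ratio 2.54), as did the TMEM170B-ADTRP region (3.24). With that height asked of one set of columns alone, these ran from 1.40 to 2.51 and from 2.09 to 3.69. Both passed in the second columns. Every peak was still matched in both replicates, so neither replicate was left out. In 100 kb bins with a matched peak of any height, the odds ratios were 1.04 for the EGFR region and 1.12 for the TMEM170B-ADTRP region. Neither passed. The resistant over parental ratio of EGFR odds ratios, 0.360, was 0.729 at heights of 5 or more and no longer passed. It ran from 0.391 to 0.688 with that height asked of one set of columns alone. The CDK4 odds ratio of 0.978 turned to 1.29 among reproducible peaks, 1.59 at a height of 5 or more and 1.20 in bins. It was 1.10 to 1.61 with that height in one set of columns alone, and passed in none of these settings. Chromosomes called numbered 4 at a height of 5 or more (5, 7, 19 and 22), and 3 to 4 with that height in one set of columns alone. Chromosome 19 passed in each of these. The MYC-tag height was the higher in 46.9% of pairs, in 59.8% by percentile within the list, and in 28.8 to 65.0% by one set of columns. Spearman's rho of the MYC-tag list was 0.0799 without chromosome 7 and 0.0387 among reproducible peaks, and that of the IgG list 0.589 among reproducible peaks. Taking reproducible peaks only raised recurrence in the resistant METTL7A MYC-tag list to 65.1% (MYC-tag) and 15% (IgG). In the parental wild-type MYC-tag list it was 63.5% and 65%, in the parental wild-type IgG list 38.1% and 75%, and in the parental METTL7A MYC-tag list 66.7% and 20%. For the directions that turned, the cause was not tested.

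No paired analysis was possible because each list merges its replicates and its columns carry no replicate number.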
